A study of Mus musculus with 66 samples.

Results

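Germ cells matured for 7 days in reconstituted ovaries (D7) were set against germ cells taken from mouse ovaries at the embryonic stage E14.5, gene by gene. The comparison took 6 of the 66 libraries of the series, 3 of each group, and all 13630 genes of the 24062 listed whose mean reached 1 RPM (reads scaled to a library of 1000000) in either group. D7 cells carried the C57BL/6 X 129/SvJ background and the Blimp1-mVenus reporter. They came from mouse embryonic stem cells turned into primordial germ cell-like cells (PGCLCs), of which 5000 were aggregated with 75000 frozen-thawed somatic cells of E12.5 gonads and kept on Transwell membranes, with the Rock inhibitor Y-27632 at 10 µM for the first 2 days. E14.5 cells had the C57BL/6 x B6D2F1 background and came from ovaries with the stella-ECFP reporter. Strain, reporter, cell source and culture therefore change together and cannot be told apart. The series calls its replicates biological, without saying which cultures or animals they came from, so the p-values measure the spread between these libraries.

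Around this time, female germ cells leave mitosis and enter the long prophase of the first meiotic division. Bone morphogenetic proteins (BMPs) and retinoic acid from the gonadal soma are known to promote that entry, through genes such as Stra8 and Zglp1. At the same time the cells shut down the pluripotency genes of primordial germ cells and keep mobile elements in check with piRNA and tudor-domain proteins.

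D7 libraries held 15441579 to 19802836 gene-assigned reads and E14.5 libraries 16198927 to 20814764. Across genes, replicate libraries correlated at r of 0.986 to 0.991 in D7 and 0.977 to 0.991 in E14.5. The E14.5 libraries differed by gene length. The longest of 5 length classes lay at a median (log2) of -0.20, 0.04 and 0.17 from the E14.5 mean in replicates 1, 2 and 3. The 10 germ cell markers summed to between 3636 and 3724 RPM in D7 and between 5012 and 5145 RPM in E14.5. Of the 10, 5 fell and none rose. Marker counts here are read against the 8.48% of all genes tested that were lower and the 17.5% higher. Of the Y-linked genes, 6 of 8 were at 0 in all 6 libraries. The granulosa markers summed to 57.2 to 58.9 RPM in D7 and 56.9 to 73.8 RPM in E14.5, with Fshr at 0 in all 6. Of 15 tested granulosa markers 3 fell (Bmp2, Kitl and Wt1) and 1 rose, with a median log2 difference of -0.43. Inha, which rose, had 27.3, 19.6 and 20.2 RPM in D7 against 4.16, 9.75 and 9.32 RPM in E14.5. The stroma markers went the other way, with sums of 21.8 to 50.1 RPM in D7 and 12.0 to 15.9 RPM in E14.5. Of 11 tested 5 rose and none fell, with a median log2 difference of 0.85, and 4 to 5 rose with a library left out. In bulk RNA, fewer cells of a type and less RNA per cell cannot be told apart.

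By limma's moderated test on log2(RPM + 1), with Benjamini-Hochberg adjustment over all 13630 genes and a threshold of 0.05, 3539 genes (26.0%) differed. Of these, 2383 (17.5%) were higher in D7 and 1156 (8.48%) lower. The median log2 difference of all genes was 0.12. After median-of-ratios rescaling it was 0.01, and the calls split into 1841 higher (13.5%) and 1705 lower (12.5%), so the excess of higher calls depends on scaling. A called log2 difference of at least 1 was reached by 1235 genes (9.06%), 914 higher (6.71%) and 321 lower (2.36%). The groups did not overlap in 43.9% of the genes tested. Log2 differences on this scale understate the change of genes near 1 RPM. As a description across genes, the D7 mean profile correlated with E14.5 at r = 0.969, with D5 at 0.960, with D9 at 0.938 and with E16.5 at 0.916.

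**Figure D1:**
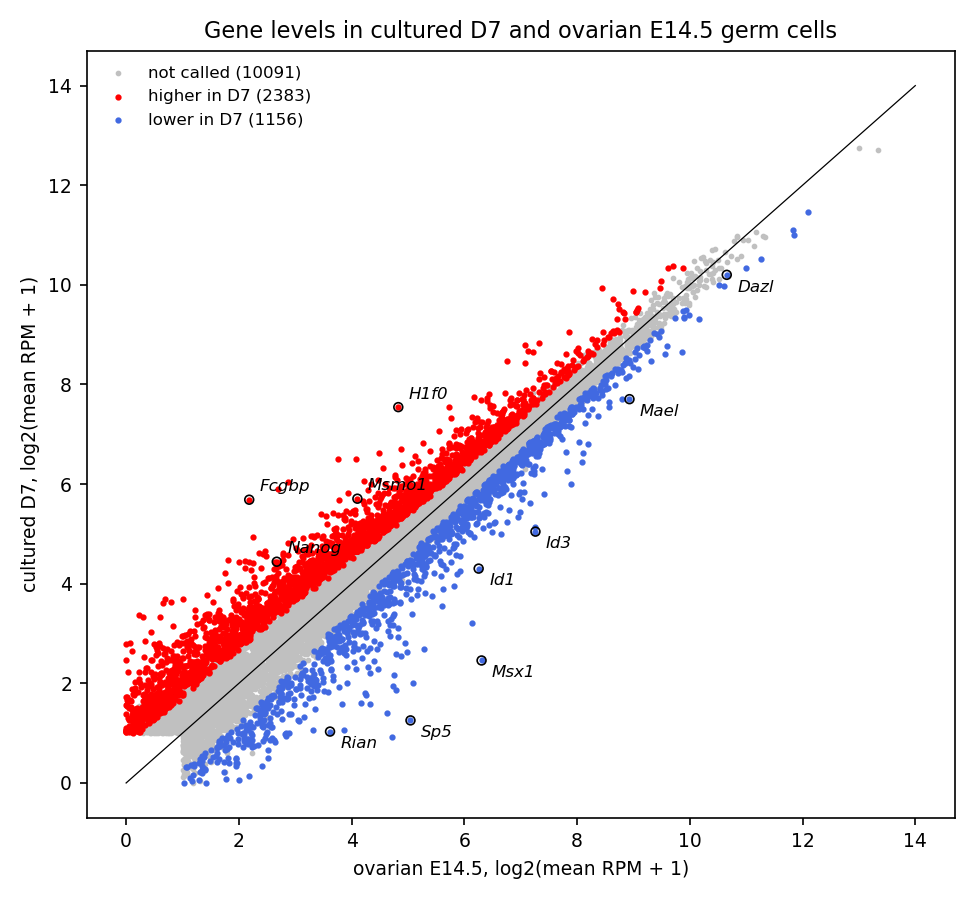
Mean level of each of the 13630 genes in 3 cultured D7 libraries (vertical axis) and 3 ovarian E14.5 libraries (horizontal axis), both as log2(mean RPM + 1), with genes called higher in D7 in red and lower in blue. Most genes lie near the line of equal level, and Msx1, Sp5 and Rian lie far below it while Fcgbp and H1f0 lie far above.

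Most members of the BMP list were lower in D7. Of its 18 tested members 12 fell and 1 rose, with a median log2 difference of -1.13, against 8.48% of all genes lower and 17.5% higher. The homeobox genes Msx1 and Msx2, targets of BMP signals, had the largest differences. Msx1 had 5.95, 3.33 and 4.21 RPM in D7 against 67.5, 71.3 and 95.4 RPM in E14.5 (log2 difference -3.86 ± 0.21, SE; adjusted p = 1.34e-06). Msx2 had 2.43, 3.08 and 3.63 RPM in D7 against 29.2, 32.6 and 36.8 RPM in E14.5 (log2 difference -3.07 ± 0.21, SE; adjusted p = 8.18e-06). In both genes every D7 library was far below every E14.5 library, though the choice as largest falls required groups without overlap. The inhibitors of differentiation, direct SMAD targets in many cell types, fell together. Id1 had 19.003, 21.3 and 15.9 RPM in D7 against 90.6, 58.5 and 76.9 RPM in E14.5 (log2 difference -1.94 ± 0.18, SE; adjusted p = 4.39e-05). Id3 had 20.3, 43.2 and 32.6 RPM in D7 against 149, 139 and 169 RPM in E14.5 (log2 difference -2.27 ± 0.21, SE; adjusted p = 4.39e-05). Id2 and Id4 fell by 1.06 and 1.57 on the log2 scale. The feedback inhibitors Smad6 and Smad7 fell by 1.34 and 1.11. The ligand gene Bmp2 had 2.49, 3.18 and 4.34 RPM in D7 against 10.4, 10.1 and 10.5 RPM in E14.5 (log2 difference -1.41 ± 0.24, SE; adjusted p = 0.00174), and the groups did not overlap. Bmp2 is also a granulosa marker, and the granulosa markers Kitl and Wt1 were lower as well. Kitl had 1.24, 1.46 and 2.46 RPM in D7 against 5.29, 6.44 and 5.37 RPM in E14.5, and Wt1 had 0.259, 0.808 and 0.907 RPM in D7 against 2.32, 2.26 and 3.02 RPM in E14.5; their part in the Bmp2 result was not tested. The receptor genes differed less: Bmpr1a fell by 0.36, while Bmpr2 (0.27) and Acvr1 (0.07) were not called. The signal transducers Smad1 (0.06) and Smad5 (0.21) were not called either, and Smad4, their shared partner, rose by 0.54, a call not made by edgeR, without the filter on low values, or without D7 replicate 1, D7 replicate 2, D7 replicate 3 or E14.5 replicate 2. Between 10 and 12 members were called lower in the fits that left out a library. In 6 members, every D7 library was also below every E16.5 library, as in 6.01% of all genes.

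**Figure D2:**
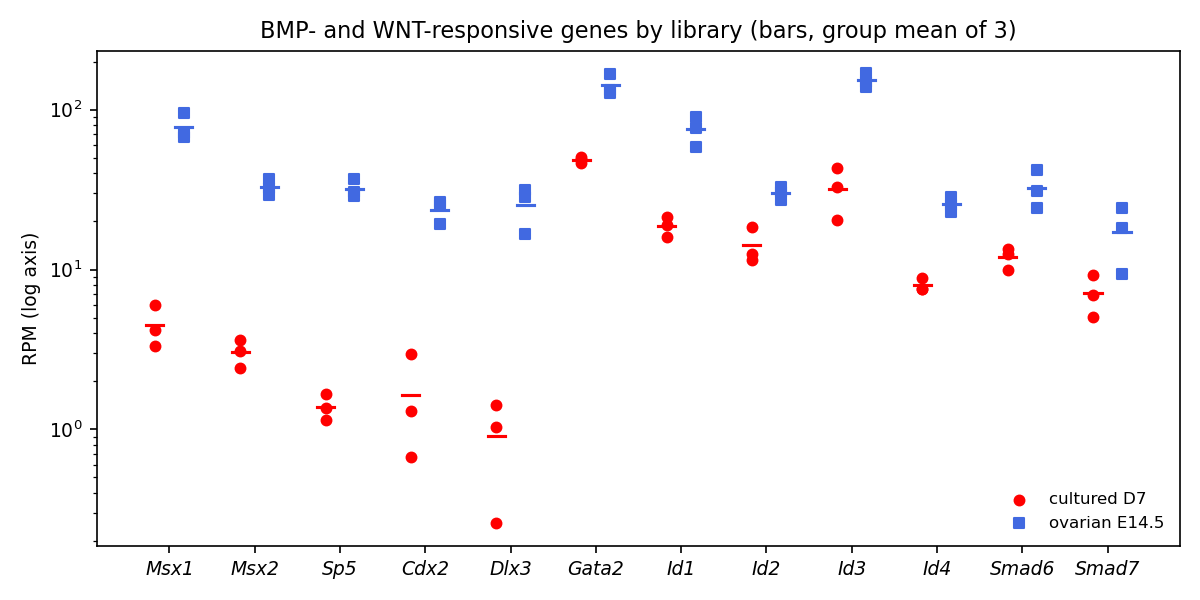
RPM on a log axis in each library for BMP and neighbouring target genes, with D7 (red circles) left of E14.5 (blue squares) and bars at the mean of 3 libraries. All 3 D7 libraries lie below all 3 E14.5 libraries for each of these 12 picked genes, so the figure is no test. For Msx1, Msx2, Sp5, Cdx2, Dlx3 and Id3 the choice as largest falls required groups without overlap. Groups did not overlap, in either direction, in 43.9% of all genes tested. BMP list members that rose or were not called are not drawn.

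Other transcription factor genes were among the 12 largest falls. Sp5, a target of WNT signals, had 1.14, 1.67 and 1.36 RPM in D7 against 28.9, 30.4 and 36.7 RPM in E14.5 (log2 difference -3.79 ± 0.22, SE; adjusted p = 1.59e-06). Cdx2, a caudal-type homeobox gene, had 0.673, 2.98 and 1.30 RPM in D7 against 19.3, 26.3 and 25.5 RPM in E14.5 (log2 difference -3.30 ± 0.30, SE; adjusted p = 4.39e-05). Dlx3, a distal-less homeobox gene, had 0.259, 1.41 and 1.04 RPM in D7 against 16.6, 28.3 and 31.3 RPM in E14.5 (log2 difference -3.80 ± 0.31, SE; adjusted p = 2.25e-05). None of these genes exceeded 3 RPM in any D7 library. The E16.5 means of Msx1, Msx2, Sp5, Cdx2 and Dlx3 were 10.6, 3.09, 6.76, 0.921 and 0.938 RPM, so the later ovarian stage was also low in them. Id1 and Id3 differed from that pattern, with E16.5 means of 419 and 156 RPM.

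Of 5 meiotic entry genes tested 3 fell and none rose, against 8.48% of all genes lower and 17.5% higher. After rescaling, by edgeR and by DESeq2, 4 fell. With the joint fit of 54 libraries, no filter on low values or a replicate block, 2 fell. The count was also 2 without D7 replicate 1, D7 replicate 2, D7 replicate 3, E14.5 replicate 2 or E14.5 replicate 3. Zglp1, a GATA-like regulator acting downstream of BMP signals, had 6.42, 8.38 and 8.16 RPM in D7 against 22.2, 19.6 and 20.2 RPM in E14.5 (log2 difference -1.33 ± 0.19, SE; adjusted p = 0.000767). Rec8, the meiotic cohesin subunit, had 168, 181 and 211 RPM in D7 against 365, 337 and 429 RPM in E14.5 (log2 difference -1.01 ± 0.13, SE; adjusted p = 0.000338). Both sets of D7 values lay below all E14.5 values. The D5 means of Zglp1, Rec8 and Stra8 in culture were 30.2, 546 and 775 RPM, against E14.5 means of 20.7, 377 and 582 RPM. Their E16.5 means were 8.53, 21.1 and 21.4 RPM, so the levels of these genes change with day and stage. Stra8 had 439, 413 and 518 RPM in D7 against 649.6, 507 and 590.1 RPM in E14.5; its groups overlapped and it missed the threshold (log2 difference -0.35 ± 0.13, SE; adjusted p = 0.0719), but passed it after rescaling (adjusted p = 0.0375) and by edgeR on recovered reads (adjusted p = 0.0406). Dazl, an RNA-binding protein that licenses germ cells for meiosis, had a log2 difference of -0.45 (adjusted p = 0.0329), a call that held in 1 of the 6 fits with a library left out. Of 13 retinoic acid genes 4 fell and none rose, against 8.48% of all genes lower and 17.5% higher. Those that fell include the synthesis enzyme Aldh1a1 (-1.53), the degrading enzyme Cyp26b1 (-0.96) and Crabp1 (-0.50), which binds retinoic acid in the cell. At an unadjusted p under 0.05 limma put 1 higher, while edgeR and DESeq2 called 0 higher. The joint fit of 54 libraries called 1 higher, as did limma without D7 replicate 2 or E14.5 replicate 1. With no filter on low values, or with one at 5 RPM, 1 fell. The count of 4 dropped to 1 without D7 replicate 1 or without E14.5 replicate 2, and to 2 without D7 replicate 2, D7 replicate 3 or E14.5 replicate 3.

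Of 39 prophase genes tested, 8 rose and 6 fell, with a median of 0.08, against 17.5% of all genes higher and 8.48% lower. After rescaling the split was 6 and 8, so the list has no direction that holds under scaling. Without D7 replicate 1 the counts were 5 and 2, and without D7 replicate 3, 5 rose, as by edgeR. Msh5, a MutS homologue that stabilises crossover intermediates, had 392, 349.6 and 471 RPM in D7 against 147, 166 and 102 RPM in E14.5 (log2 difference 1.56 ± 0.17, SE; adjusted p = 0.000133). Ccnb1ip1, a ligase that limits crossover sites, had 40.6, 37.7 and 40.7 RPM in D7 against 82.2, 63.8 and 59.8 RPM in E14.5 (log2 difference -0.76 ± 0.14, SE; adjusted p = 0.00325). Sycp3, a core protein of the chromosome axis, had 682, 670.4 and 711 RPM in D7 against 579.9, 712 and 596 RPM in E14.5, and Dmc1, the meiotic recombinase, had 347, 335 and 399 RPM in D7 against 351, 366 and 281 RPM in E14.5. Both overlapped between the groups (adjusted p = 0.44 for Sycp3 and 0.514 for Dmc1).

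Transposon defence genes were also mostly lower: 11 of 20 fell and 2 rose, with a median of -0.71, against 8.48% of all genes lower and 17.5% higher. The lower count was between 8 and 12 with a library left out and 14 after rescaling. The 2 that rose were Tdrd6 (1.06) and Morc1 (0.80), and 1 rose after rescaling, by edgeR, and without D7 replicate 2, D7 replicate 3, E14.5 replicate 2 or E14.5 replicate 3. Gtsf1, a piRNA pathway cofactor, had 6.89, 6.72 and 6.48 RPM in D7 against 33.8, 19.3 and 20.5 RPM in E14.5 (log2 difference -1.69 ± 0.23, SE; adjusted p = 0.000515). Asz1, a protein of the germ granule, had 27.9, 38.6 and 38.5 RPM in D7 against 93.5, 95.7 and 66.98 RPM in E14.5 (log2 difference -1.26 ± 0.17, SE; adjusted p = 0.000524). Mael, which acts in piRNA-guided silencing, had 187, 214 and 222 RPM in D7 against 667, 407 and 386 RPM in E14.5 (log2 difference -1.18 ± 0.18, SE; adjusted p = 0.000973). All 3 genes had D7 values below every E14.5 value. Ddx4, the germ cell helicase of the same granules, had 456, 399 and 457 RPM in D7 against 749, 758 and 797 RPM in E14.5 (log2 difference -0.81 ± 0.12, SE; adjusted p = 0.000627). In 12 of the 20 members every D7 library was below every E14.5 and every E16.5 library, as in 6.01% of all genes. Mael and Ddx4 are also germ cell markers, and of those 10 markers 5 fell and none rose, with a median of -0.51. The part of that fall in the transposon defence result was not tested. The D9 means of Gtsf1, Asz1 and Mael in culture were 12.02, 45.4 and 192 RPM, against E16.5 means of 35.6, 185 and 687 RPM. Sohlh2, an oocyte transcription factor outside this list, had 126, 109 and 109 RPM in D7 against 258, 260.3 and 261 RPM in E14.5 (log2 difference -1.18 ± 0.11, SE; adjusted p = 4.39e-05).

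Promoters of Mael and Ddx4 are shown because both genes fell and both hold the E-box CACGTG, the letters bound by many basic helix-loop-helix factors, in capitals. The letters are RefSeq's, on GRCm38.p6, from 250 bases before to 50 after the annotated start, read 5' to 3' on the gene's strand, the minus strand for both, at chr1:166238695-166238994 for Mael and chr13:112652261-112652560 for Ddx4.
Mael: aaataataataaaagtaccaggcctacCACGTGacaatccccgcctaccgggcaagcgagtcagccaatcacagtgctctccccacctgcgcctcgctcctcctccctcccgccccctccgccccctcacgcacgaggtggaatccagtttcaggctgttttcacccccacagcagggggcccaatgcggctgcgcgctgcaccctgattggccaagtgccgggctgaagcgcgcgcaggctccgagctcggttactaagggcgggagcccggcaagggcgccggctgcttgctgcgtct
Ddx4: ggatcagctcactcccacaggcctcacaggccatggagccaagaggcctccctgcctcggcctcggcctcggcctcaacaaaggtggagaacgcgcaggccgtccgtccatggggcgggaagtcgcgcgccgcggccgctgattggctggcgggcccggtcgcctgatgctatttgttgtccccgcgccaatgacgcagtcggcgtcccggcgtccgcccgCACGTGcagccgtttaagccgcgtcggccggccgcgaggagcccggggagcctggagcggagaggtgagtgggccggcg
On both strands, CACGTG stood in 7 of the 17 transposon defence genes with an entry, and in 11.75% of the 10226 tested genes with an entry. The choice of this motif came after its counts were seen. In all, 18 motifs were searched in 6 lists, giving 108 counts, and the 3 shown here (CACGTG and, further on, GGCGCC and then CCAAT) were picked from them because they were frequent, so these shares carry no test and a high share among so many is no finding. Among the other 15 were CACGTGAC, TCACGTG and CACGTGNC, which contain or overlap the E-box; CAGCCAAT, which contains CCAAT; and TCCCGC, GGCGGGAA, AGTCCGCC, GNCTAGAC, GTCTAGAC, TGACGTCA, TCACNCCAC, TCACNCNAC, AACNNAAGT and TCGCGAGA. The sterol regulatory element TCACNCCAC stood in 1 of 16 cholesterol genes with an entry, and in 1.467% of tested genes.

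The BMP targets Id2 and Id4 are shown for GGCGCC, a GC-rich element that SMAD proteins are known to bind, in capitals, at chr12:25096043-25096342 on the minus strand for Id2 and chr13:48260866-48261165 on the plus strand for Id4.
Id2: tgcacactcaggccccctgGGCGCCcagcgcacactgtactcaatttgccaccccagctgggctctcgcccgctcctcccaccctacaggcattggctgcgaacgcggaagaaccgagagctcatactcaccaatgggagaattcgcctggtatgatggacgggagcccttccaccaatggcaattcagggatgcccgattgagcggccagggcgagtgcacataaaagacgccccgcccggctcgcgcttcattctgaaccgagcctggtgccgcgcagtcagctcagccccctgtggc
Id4: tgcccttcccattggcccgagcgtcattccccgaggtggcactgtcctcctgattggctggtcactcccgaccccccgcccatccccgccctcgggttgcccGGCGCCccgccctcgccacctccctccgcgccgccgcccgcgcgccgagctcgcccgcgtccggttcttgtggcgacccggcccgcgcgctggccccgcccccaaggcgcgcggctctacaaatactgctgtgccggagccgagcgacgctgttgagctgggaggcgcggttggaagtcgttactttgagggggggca
GGCGCC stood in 7 of 13 BMP genes with an entry, 5 of them among the 9 that fell and have an entry, and in 25.52% of tested genes. Bmpr2 and Smad5, which hold it, were not called.

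Cholesterol genes went the other way. Of 23 tested, 14 rose and none fell, with a median of 0.53, against 17.5% of all genes higher; the higher count was 11 after rescaling, and 9 without D7 replicate 1. At an unadjusted p under 0.05 limma put 0 lower, and at an adjusted p under 0.05 edgeR and DESeq2 called 0 lower. Msmo1, a demethylase of the late pathway, had 59.3, 55.4 and 38.99 RPM in D7 against 12.9, 16.9 and 18.8 RPM in E14.5 (log2 difference 1.60 ± 0.20, SE; adjusted p = 0.000257). Mvd and Mvk, enzymes of the mevalonate branch, rose by 1.57 and 1.35. None of these genes overlapped between groups. Srebf2, the transcription factor that drives the pathway, rose by 0.53, while Hmgcs1 (0.30) and Idi1 (-0.22) were not called. In 9 members every D7 library was above every E14.5 and E16.5 library, as in 8.39% of all genes.

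Msmo1 and Mvd are shown for CCAAT, the letters bound by the factor NF-Y, found on either strand (ATTGG is its complement) and in capitals, at chr8:64733529-64733828 and chr8:122443373-122443672, both on the minus strand.
Msmo1: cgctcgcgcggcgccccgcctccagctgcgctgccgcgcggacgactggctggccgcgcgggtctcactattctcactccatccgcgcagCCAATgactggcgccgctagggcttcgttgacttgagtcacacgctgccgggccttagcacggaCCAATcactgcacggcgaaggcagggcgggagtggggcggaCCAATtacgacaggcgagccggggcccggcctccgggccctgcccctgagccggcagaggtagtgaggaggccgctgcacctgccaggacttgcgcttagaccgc
Mvd: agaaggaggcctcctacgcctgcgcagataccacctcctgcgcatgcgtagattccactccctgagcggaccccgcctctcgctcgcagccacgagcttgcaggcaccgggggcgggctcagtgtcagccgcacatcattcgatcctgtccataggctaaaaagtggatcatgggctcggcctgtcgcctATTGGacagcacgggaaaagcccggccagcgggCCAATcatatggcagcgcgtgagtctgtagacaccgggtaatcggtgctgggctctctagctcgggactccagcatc
CCAAT stood in 16 of 16 cholesterol genes with an entry and in 43.27% of tested genes; the 7 of those 16 that were not called hold it as well as the 9 that rose.

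**Figure D3:**
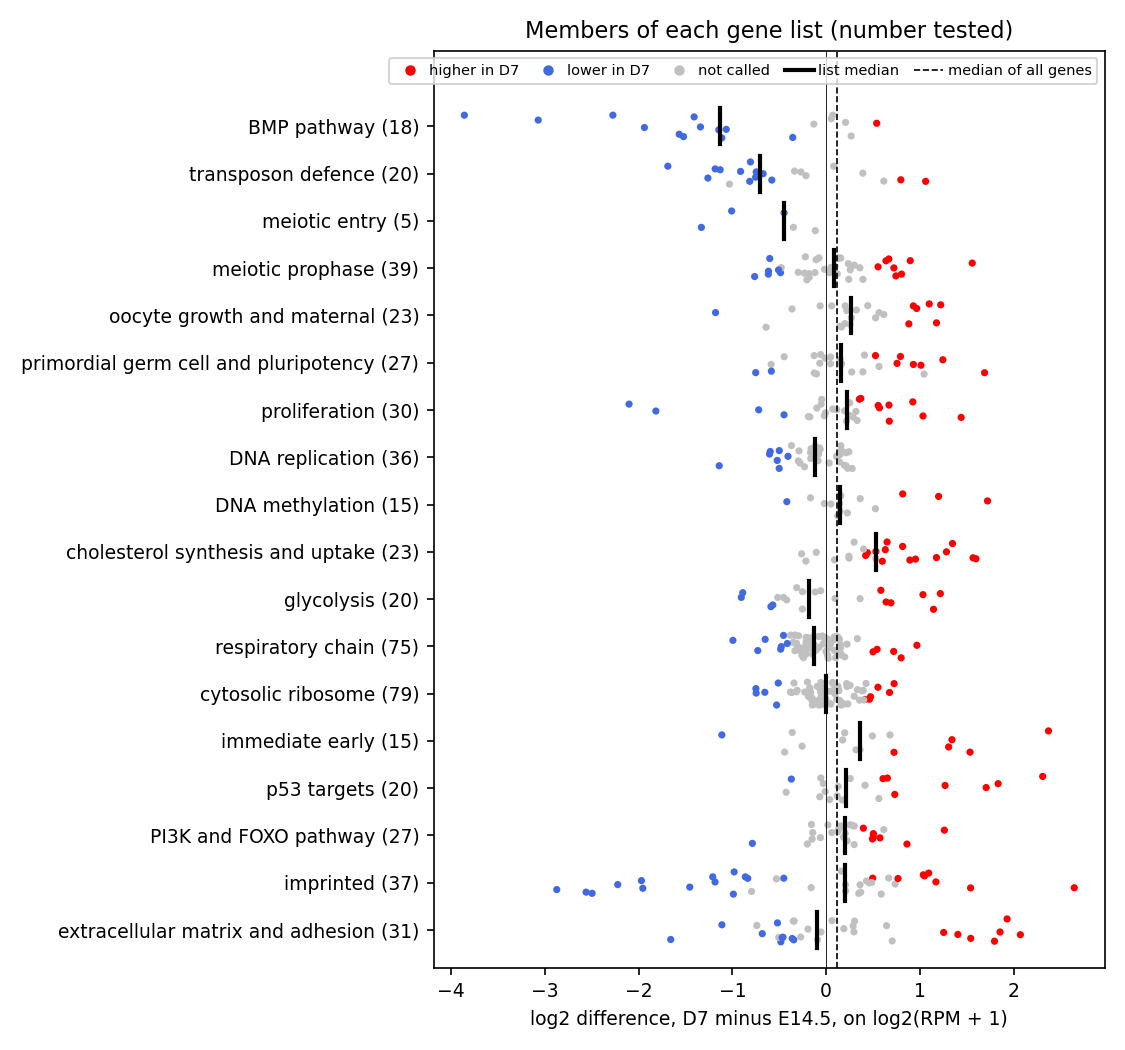
Log2 difference, D7 minus E14.5, of each tested member of 18 gene lists, coloured by call, with a bar at the list median and a dashed line at the median of all genes. BMP and transposon defence members lie mostly left of the line and cholesterol members mostly right of it.

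Most pluripotency genes did not pass the test. Of 27 tested, 7 rose and 2 fell, with a median of 0.16, against 17.5% of all genes higher, 8.48% lower and a median of 0.12. The higher count was 2 with no filter, 1 without D7 replicate 1, 1 without D7 replicate 2 and 3 without E14.5 replicate 2; 4 fell without E14.5 replicate 1 and 0 by the joint fit. Nanog had 16.2, 33.2 and 12.8 RPM in D7 against 4.90, 3.94 and 7.28 RPM in E14.5 (log2 difference 1.69 ± 0.32, SE; adjusted p = 0.00341), and held in all 6 fits with a library left out. The core factors did not pass: Pou5f1 had 133, 165 and 101 RPM in D7 against 165, 130.4 and 134 RPM in E14.5 (adjusted p = 0.592) and Sox2 had 43.96, 62.6 and 32.6 RPM in D7 against 53.4, 51.8 and 83.7 RPM in E14.5 (adjusted p = 0.166). Their groups overlapped. The specification factor Prdm1 (0.05) and Dppa3 (0.15) did not pass either. Prdm1 is Blimp1, the reporter gene of the D7 cells, and Dppa3 is stella, the reporter gene of the E14.5 cells.

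Proliferation genes ran both ways. Among the D-type cyclin genes of the G1 phase, Ccnd1 had 30.3, 32.6 and 39.9 RPM in D7 against 142, 131 and 179.7 RPM in E14.5 (log2 difference -2.10 ± 0.15, SE; adjusted p = 9.85e-06) and Ccnd2 had 1.14, 1.36 and 2.01 RPM in D7 against 5.49, 7.98 and 10.4 RPM in E14.5 (log2 difference -1.82 ± 0.28, SE; adjusted p = 0.00095), while Ccnd3 was not called. The mitotic genes Ccnb1 and Aurkb rose by 1.03 and 1.44. In all, 9 of 30 rose and 4 fell, against 17.5% and 8.48% of all genes; 3 rose without D7 replicate 1 and 5 without D7 replicate 2. Mki67 had 635, 570.2 and 674 RPM in D7 against 337, 661 and 647 RPM in E14.5, with the low value in E14.5 replicate 1, and was not called. Of 36 DNA replication genes 7 fell and none rose, among them Pola1, a polymerase subunit (-1.14); 4 fell without D7 replicate 1 or D7 replicate 3, and 11 by edgeR or DESeq2. At an unadjusted p under 0.05 limma put 1 higher; edgeR and DESeq2 called 0 higher, and without E14.5 replicate 1 limma called 2.

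Most oocyte genes did not pass the test either. Of 23 tested, 6 rose and 1 fell, against 17.5% of all genes higher and 8.48% lower. By edgeR 3 rose, and the higher count was 1 to 5 with a library left out (1 without D7 replicate 1, 2 without D7 replicate 2 or E14.5 replicate 3, 3 without E14.5 replicate 2). Tle6, a part of the maternal complex of the egg, had 15.999, 17.02 and 14.6 RPM in D7 against 5.64, 7.49 and 7.59 RPM in E14.5 (log2 difference 1.10 ± 0.21, SE; adjusted p = 0.00323). Figla, which drives follicle formation, had 27.5, 31.6 and 25.5 RPM in D7 against 41.9, 37.7 and 30.6 RPM in E14.5 and was not called.

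Metabolic and ribosomal lists are read against the 17.5% of all genes higher and 8.48% lower. Of 20 glycolysis genes 6 rose and 4 fell, with 7 lower after rescaling, 7 by edgeR and 8 by DESeq2, so the split turns with scaling. The entry enzymes and transporter Hk1, Pfkp and Slc2a3 rose by 1.22, 1.14 and 1.03, while Gpi1 and Ldha fell by 0.90 and 0.89. Of 79 cytosolic ribosome genes 6 rose and 5 fell. After rescaling, by edgeR and by DESeq2 2 rose, and 10 fell by DESeq2. With no filter 2 rose and 2 fell. The higher count was 1 without D7 replicate 1, 2 without D7 replicate 2 or E14.5 replicate 3, and 18 without E14.5 replicate 1. The lower count was 2 without D7 replicate 1 or D7 replicate 3 and 3 without E14.5 replicate 2. Of 75 respiratory chain genes 5 rose and 7 fell, and after rescaling 3 and 15. With a library left out 2 to 8 rose (2 without D7 replicate 1 or D7 replicate 2, 3 without E14.5 replicate 2 or E14.5 replicate 3, 8 without E14.5 replicate 1) and 3 to 15 fell (3 without D7 replicate 1, 4 without D7 replicate 3 or E14.5 replicate 2, 15 without E14.5 replicate 3).

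Lists of stress and early response genes ran both ways. Of 15 immediate early genes 5 rose and 1 fell, against 17.5% and 8.48% of all genes. Egr1, an immediate early factor, had 102, 111 and 56.8 RPM in D7 against 14.1, 17.4 and 16.3 RPM in E14.5 (log2 difference 2.37 ± 0.22, SE; adjusted p = 4.39e-05). Of 26 heat shock and unfolded protein response genes 3 rose and 6 fell, with 2 lower without D7 replicate 1 or D7 replicate 3 and 3 lower with no filter. There 5 rose by the joint fit or without E14.5 replicate 1. Of 19 integrated stress and amino-acid response genes 2 rose and 3 fell, with 1 higher and 5 lower after rescaling. There 1 rose without D7 replicate 1, D7 replicate 2 or E14.5 replicate 2, and 6 fell without E14.5 replicate 1. Of 20 p53 targets 7 rose and 1 fell; 4 rose without D7 replicate 1. Pmaip1, a BH3-only protein, had 8.91, 9.04 and 5.89 RPM in D7 against 0.940, 0.865 and 0.556 RPM in E14.5 (log2 difference 2.31 ± 0.26, SE; adjusted p = 0.000147). Ccng1, a cyclin induced by p53, had 37.3, 41.5 and 33.5 RPM in D7 against 14.3, 15.1 and 15.2 RPM in E14.5 (log2 difference 1.27 ± 0.16, SE; adjusted p = 0.000309). In the PI3K and FOXO list 7 of 27 rose and 1 fell. The higher count was 5 after rescaling, 2 without D7 replicate 1 and 4 without D7 replicate 3 or E14.5 replicate 2. Irs2, an insulin receptor adaptor, had 22.6, 22.4 and 25.6 RPM in D7 against 5.84, 11.5 and 11.5 RPM in E14.5 (log2 difference 1.26 ± 0.24, SE; adjusted p = 0.00364).

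Several of the largest rises were also high at E16.5. H1f0, a linker histone, had 190.1, 217 and 150.4 RPM in D7 against 30.7, 26.8 and 24.8 RPM in E14.5 (log2 difference 2.71 ± 0.15, SE; adjusted p = 1.34e-06), with an E16.5 mean of 241 RPM. Fcgbp, a mucus protein, had 56.2, 39.6 and 55.7 RPM in D7 against 3.56, 5.09 and 1.98 RPM in E14.5 (log2 difference 3.55 ± 0.26, SE; adjusted p = 1.26e-05), with an E16.5 mean of 20.1 RPM. Klhdc8b, a kelch domain protein gene, had 31.2, 29.996 and 27.4 RPM in D7 against 2.67, 5.24 and 3.33 RPM in E14.5, with an E16.5 mean of 62.5 RPM. Amy1, a salivary amylase, had 77.9, 48.8 and 67.8 RPM in D7 against 3.22, 10.6 and 5.12 RPM in E14.5, with an E16.5 mean of 46.9 RPM. Amy1 belongs to a family of similar genes, so these values are uncertain. Mt2, a metallothionein, differed from these: it had 21.5, 27.3 and 13.5 RPM in D7 against 3.31, 3.56 and 2.16 RPM in E14.5 (log2 difference 2.41 ± 0.28, SE; adjusted p = 0.000165) and an E16.5 mean of 3.41 RPM. The cultured D5 and D9 means of Mt2 were 23.1 and 59.6 RPM. Ptgr1, Prex2 and Tuba1c, also among the 12 largest rises, were likewise low at E16.5. Their D7 means were 20.8, 20.7 and 23.3 RPM, and their E16.5 means 4.86, 1.83 and 3.15 RPM. For Fcgbp, every D7 library was also above every E16.5 library. Comparisons with E14.5 share its libraries, so these levels stand side by side.

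**Figure D4:**
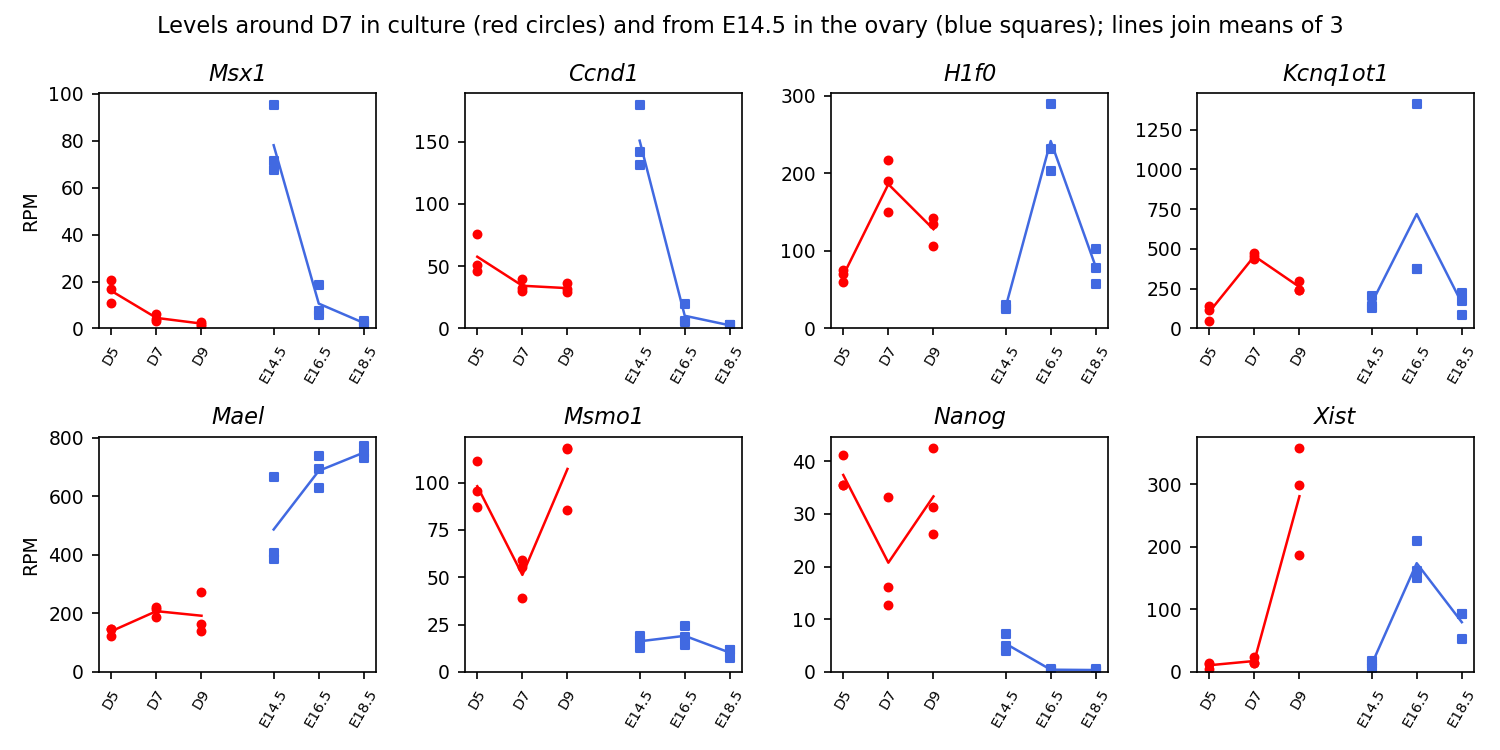
RPM by library (points) and group mean (lines) for 8 genes at culture days D5, D7 and D9 (red circles) and ovarian stages E14.5, E16.5 and E18.5 (blue squares), each axis from 0. Msx1 and Ccnd1 are highest at E14.5, H1f0 peaks at D7 in culture and at E16.5 in the ovary, and Mael stays lower in culture.

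Extracellular matrix genes ran both ways: 7 of 31 rose and 9 fell, against 17.5% and 8.48% of all genes. The joint fit called 3 lower, and 3 to 5 fell in 5 of the fits with a library left out (3 without D7 replicate 1 or E14.5 replicate 3, 4 without D7 replicate 3, 5 without D7 replicate 2 or E14.5 replicate 2). Cdh1, the epithelial cadherin, had 54.6, 70.8 and 41.4 RPM in D7 against 14.3, 12.6 and 16.1 RPM in E14.5 (log2 difference 1.86 ± 0.20, SE; adjusted p = 0.000101), while Vim, an intermediate filament, fell by 1.66. Collagen Col1a1 had 3.05, 10.1 and 3.76 RPM in D7 against 0.643, 0.480 and 0.185 RPM in E14.5 (log2 difference 2.07 ± 0.36, SE; adjusted p = 0.00201). It is also a stroma marker, and the stroma markers summed to 21.8 to 50.1 RPM in D7 against 12.0 to 15.9 RPM in E14.5; their part in this result was not tested. Of 15 DNA methylation genes 3 rose and 1 fell, near the shares of all genes, and 1 rose without D7 replicate 1, D7 replicate 2 or D7 replicate 3. The maintenance enzyme Dnmt1 fell by 0.42 (held in 1 of 6 fits with a library left out), and Dnmt3b, a de novo methyltransferase, had 18.02, 18.6 and 19.2 RPM in D7 against 3.12, 5.96 and 6.36 RPM in E14.5 (log2 difference 1.72 ± 0.25, SE; adjusted p = 0.000691).

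Imprinted genes, expressed from 1 parental allele, differed in both directions: of 37 tested, 8 rose and 14 fell, with a median of 0.21, against 17.5% and 8.48% of all genes. Without D7 replicate 1, 5 rose. Split by the allele known as expressed, a split made after the values were seen, 9 of 12 maternally expressed genes fell and 2 rose (median -1.09), and 3 of 20 paternally expressed genes fell and 6 rose (median 0.46). The counts are not allele-specific. Phlda2, a growth-restricting gene, had 1.55, 4.75 and 2.20 RPM in D7 against 20.9, 29.6 and 26.5 RPM in E14.5 (log2 difference -2.87 ± 0.29, SE; adjusted p = 7.55e-05). Meg3 and Rian are non-coding RNAs that lie in an imprinted cluster together with Dlk1. Meg3 had 1.35, 3.59 and 1.10 RPM in D7 against 6.13, 17.8 and 33.5 RPM in E14.5, and Rian had 1.09, 0.555 and 1.49 RPM in D7 against 6.63, 8.79 and 18.4 RPM in E14.5. Rian was below 2 RPM in every D7 library. The culture means of Meg3 and Rian were 3.12 and 1.21 RPM at D5 and 50.2 and 29.7 RPM at D9. Their E16.5 means were 19.5 and 9.11 RPM. Kcnq1ot1 had 455, 434 and 476 RPM in D7 against 144, 203 and 129 RPM in E14.5 (log2 difference 1.54 ± 0.15, SE; adjusted p = 5.94e-05) and Nespas had 19.6, 27.5 and 16.4 RPM in D7 against 2.67, 1.92 and 2.90 RPM in E14.5 (log2 difference 2.65 ± 0.25, SE; adjusted p = 4.39e-05). Both are antisense to other genes, and the strand setting of the counting is not given in the sources used here. Not all maternally expressed genes fell: Grb10, a growth-restraining adaptor, rose by 1.04. H19 had 33.03, 56.9 and 28.6 RPM in D7 against 122, 55.8 and 64.1 RPM in E14.5 (log2 difference -0.99 ± 0.28, SE; adjusted p = 0.0241), with overlapping groups.

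**Figure D5:**
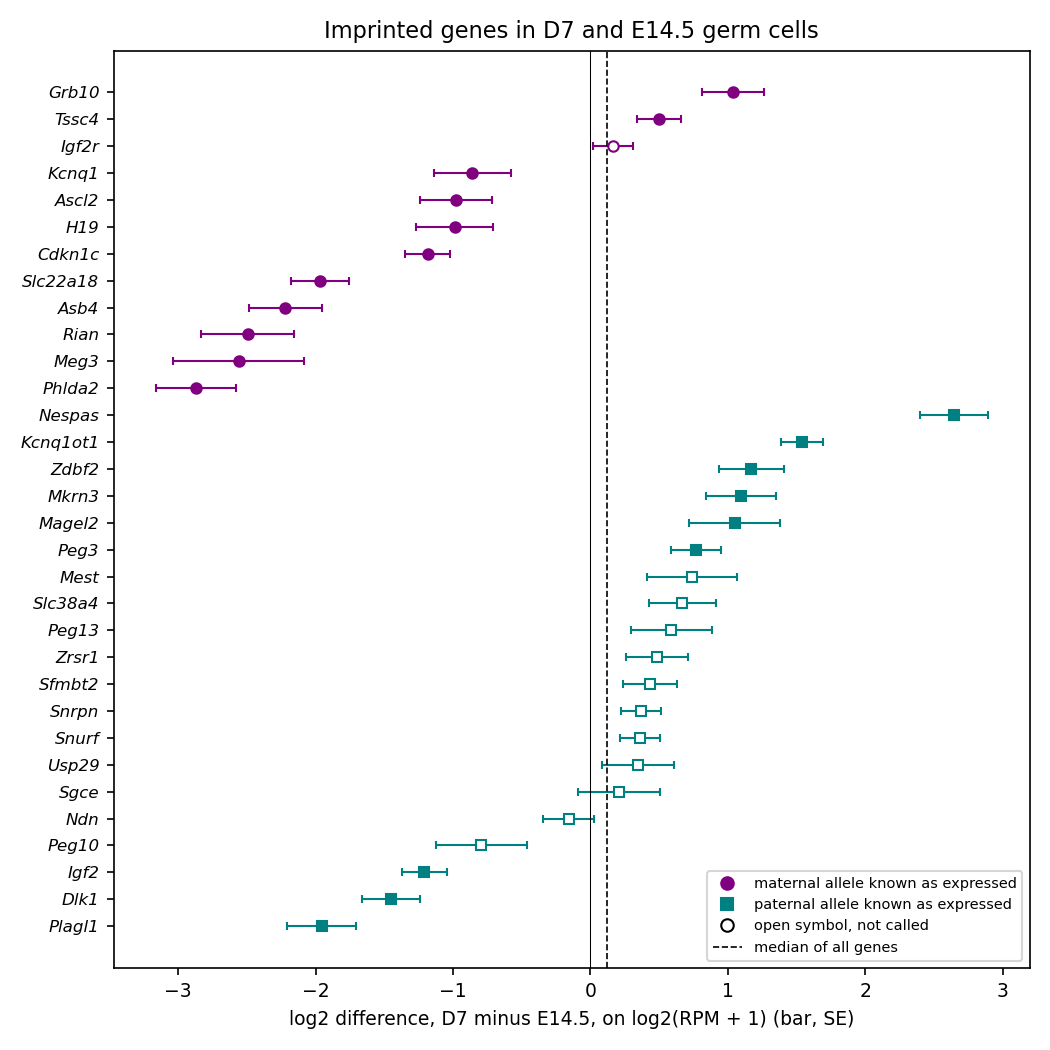
Log2 difference, D7 minus E14.5, with its standard error (bar) for imprinted genes grouped by expressed allele, maternal (purple circles) above paternal (teal squares), open where not called. Most maternally expressed genes lie below 0 and most paternally expressed genes above it, with Grb10 and Plagl1 among the exceptions.

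X-linked genes were lower relative to autosomal genes. Of 527 tested, 57 rose and 110 fell, with a median of -0.09, against a median of 0.13 over 13040 autosomal genes, of which 2315 rose and 1037 fell. After rescaling 46 X-linked genes rose and 147 fell. With a library left out 31 to 60 rose and 70 to 139 fell. The counts were 31 and 70 without D7 replicate 1, 36 and 78 without D7 replicate 2, 39 and 74 without D7 replicate 3, and 41 and 78 without E14.5 replicate 2. More fell than rose in each of these 6 fits, while on the autosomes more rose than fell in each. Measured against the E14.5 mean, the X median minus the autosomal median was -0.27, -0.15 and -0.25 in the D7 libraries and 0.02, -0.02 and 0.02 in the E14.5 libraries. Values of multicopy families, whose members are similar, are uncertain. Without these families and unnamed genes, 49 of 438 genes rose and 78 fell, with a median of -0.07. Xist, the RNA that silences an X, had 14.2, 23.3 and 14.96 RPM in D7 against 6.38, 12.1 and 17.04 RPM in E14.5 and was not called. Genes picked after their values were seen were the germ cell gene Scml2, with means of 111 ± 14.7 RPM in D7 and 292 ± 33.9 RPM in E14.5 (SD, n = 3 each), and Dusp9, a phosphatase, with 97.7 ± 12.9 RPM in D7 and 275 ± 27.6 RPM in E14.5.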

How the data were processed

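Poly(A) RNA was sequenced from 3 D7 and 3 E14.5 libraries with a directional kit and 12 PCR cycles, per the labels' protocols. The authors deposited RPM values per gene, reads scaled to a library of 1000000. The submitters' processing notes name TopHat2, Bowtie2 2.0.13, featureCounts 1.5.1, R 3.4.4 and build mm10; their roles, the annotation and the strand setting are not given in the sources used here. In the 6 libraries every RPM value was a whole number of reads (100%, tolerance 0.01), and 3 reads are worth 0.144 to 0.194 RPM. PCR duplicates cannot be told apart, so counting precision is an upper limit.

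Genes with a mean of 1 RPM in either group were tested with limma 3.58.1 (R 4.3.3) on log2(RPM + 1), 2 groups, trend, Benjamini-Hochberg, threshold 0.05. In simulated data with 13630 genes, 67, 67 and 66 genes with a mean of at least 5 RPM were altered 1.5, 2 and 4 times. Of these, limma found 32.8%, 83.6% and 100%, beside 7 false calls. Genes under 5 RPM were not altered, so recovery among them was not measured. The simulation held no scaling shift between groups and no deviating library, and far fewer altered genes than were called here. Alternatives were edgeR 4.0.16 and DESeq2 1.42.0 on recovered reads, rescaling, other pseudocounts and filters, a joint fit of 54 libraries, robust variances, a replicate block and leaving out each library. Named genes were the 12 largest rises and 12 largest falls with non-overlapping groups and a mean of at least 20 RPM, up to 4 called members per list at 5 RPM or more, and a fixed panel; a panel gene absent from the table is not used here. Further list members are named to complete their groups, after their values were seen. The members, lists and motifs were chosen with earlier results of these data known. Some members of the lists are not reported here.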

Additional observations from a re-analysis of the deposited data

How the results depend on the processing

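Leaving out each library gave 1592 to 4340 called genes (1051 to 2642 higher in D7, 541 to 1698 lower), against 3539 (2383 and 1156) with all 6. The lowest came without D7 replicate 1 (1592); D7 replicate 2 gave 2222, D7 replicate 3 gave 2177, E14.5 replicate 2 gave 2332 and E14.5 replicate 1 gave 4340. The cause was not tested, though these fits hold 5 libraries. DESeq2 called 1922 genes lower. With a pseudocount of 5 RPM, 328 called genes reached a log2 difference of 1, against 1235, since a larger pseudocount shrinks the differences of low genes. The likeness of D7 to E14.5 was r = 0.969, and 0.953, 0.976 and 0.954 with a pseudocount of 0.1 RPM, of 5 RPM and a filter at 5 RPM, alternatives chosen after seeing the data. Of 116 called named genes, edgeR and DESeq2 each kept 113, the joint fit 108, no filter 99, and leaving out a library 87 to 116; no named gene that was called changed direction in these fits, whereas Prdm1, which was not called, was 0.05 here and -0.05 by edgeR, and some other uncalled genes also turned. Same-numbered D7 and E14.5 libraries deviated from their group means with r of -0.08, -0.08 and -0.07, against -0.01 to 0.09 for the other pairs. These values show no positive pairing by replicate number, but 3 libraries per group cannot exclude it. A replicate block gave 3386 calls (2316 higher, 1070 lower). Genes under a few RPM are limited by depth.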
